A study of Yarrowia lipolytica with 9 samples.

Results

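*Yarrowia lipolytica* strain W29 was compared at its upper pH step, from mildly acid medium (pH 4.0) to nearly neutral medium (pH 6.0), across all of its measured genes. The comparison takes the 3 libraries grown at pH 6.0 against the 3 grown at pH 4.0, out of 9 libraries in all. It covers the genes with at least 1 CPM (read counts scaled to 1000000 reads of effective library size) in at least 3 of these 6 libraries, which were 6104 of the 6170 in the table; the other 66 were below that limit. W29 is a wild-type isolate and no group carries a genetic change, so medium pH is the one labelled difference between the groups. Every culture was a pH-controlled bioreactor harvested at hour 50. The medium held glucose at 50 g/L, ammonium sulfate at 1 g/L, yeast extract at 1.5 g/L and yeast nitrogen base, free of amino acids and ammonium sulfate, at 1.7 g/L. The 3 libraries at pH 2.0 serve to estimate the spread and to set the lower step beside the upper one. Replicates A, B and C of each group are, by the labels, triplicate bioreactors, here treated as independent cultures. A library is named below by its pH and letter.

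*Y. lipolytica* is an oil-storing yeast. When nitrogen runs short while sugar is left, it stops dividing, secretes citrate or sugar alcohols, and stores carbon as triacylglycerol in lipid bodies. Citrate leaves the mitochondrion through carriers and is then either exported or split by ATP-citrate lyase into the acetyl-CoA from which fatty acids are built. In fungi, neutral and alkaline surroundings are sensed by a membrane pathway that activates the zinc finger factor Rim101 (PacC in moulds), and the plasma membrane proton ATPase holds the inside of the cell near neutral. The study's title names medium pH, citrate and lipid as its subject.

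The genes carry YALI0 locus tags, which neither the table nor the reference annotation (8689 genes of the same strain under other tags, 0 matched) pairs with names. Roles are therefore given as background from published locus-tag assignments and were not checked against sequence here. In 22 lists of pathways and families 153 loci were collected, 151 of them had a row, and 150 entered the comparison. The exception, the alkane cytochrome P450 Alk8 (YALI0C12122g), was below the limit on low values. The hexose transporter Yht2 (YALI0C08943g) and Alk10 (YALI0B20702g) were not analysed here.

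The 6 libraries held 12974822 to 17701766 reads each. The libraries at pH 4.0 differed more among themselves than those at pH 6.0, with a median SD of 0.13 against 0.09 on the log2 scale. Fold changes are differences of log2(CPM + 1), which understates the changes of weakly expressed genes, and a gene was called when its adjusted p in limma was under 0.05.

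Of the 6104 genes, 3180 (52.1%) were called between pH 6.0 and pH 4.0. They divided evenly, 1590 higher at pH 6.0 (26.0%) and 1590 lower (26.0%), and the median log2 fold change over all genes was -0.0010. Scaling to effective library size draws fold changes towards a centre near 0, so this balance is partly set by the scaling. With equal totals 1491 were higher and 1595 lower, and with quantile normalization 1446 and 1638. Most changes were small. The absolute log2 fold change was under 0.5 for 1626 of the called genes and at least 1 for 339. Among these 339 larger changes more were higher than lower, 205 against 134. At 3 or more on the log2 scale 21 genes were higher and 14 lower. In 3111 of the called genes the pH 4.0 and pH 6.0 libraries did not overlap, and in 69 they did. Lack of overlap was common: over all 6104 genes, called or not, it was found in 1952 higher and 1871 lower at pH 6.0. Where it is given below it describes the values and adds little to a call.

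The changes were found at all levels of expression. Among the 872 genes with a mean under 10 CPM 38.3% were called, against 52.6% of 3203 genes at 10 to 100 CPM, 57.3% of 1837 genes at 100 to 1000 CPM and 56.3% of 192 genes at 1000 CPM or more. The median SE was 0.16 in the lowest class and 0.09 to 0.11 in the others, so the weakest genes were measured least precisely. In the class at 100 to 1000 CPM more genes were higher than lower (618 and 435), and at 10 to 100 CPM fewer were (777 and 908). The letter after YALI0 names the chromosome in this tag scheme. The share of genes called higher lay between 24.5% (letter E) and 28.4% (letter D), and the share called lower between 24.1% (D) and 27.7% (F). Most of the larger changes stood apart, and the number of neighbouring pairs that chance would give was not computed. Of the nuclear genes called with a log2 change past 1 either way, 181 higher and 110 lower ones stood alone in tag order, 12 pairs of neighbours were higher together and 6 pairs lower together, and no run was longer than 2.

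**Figure D1:**
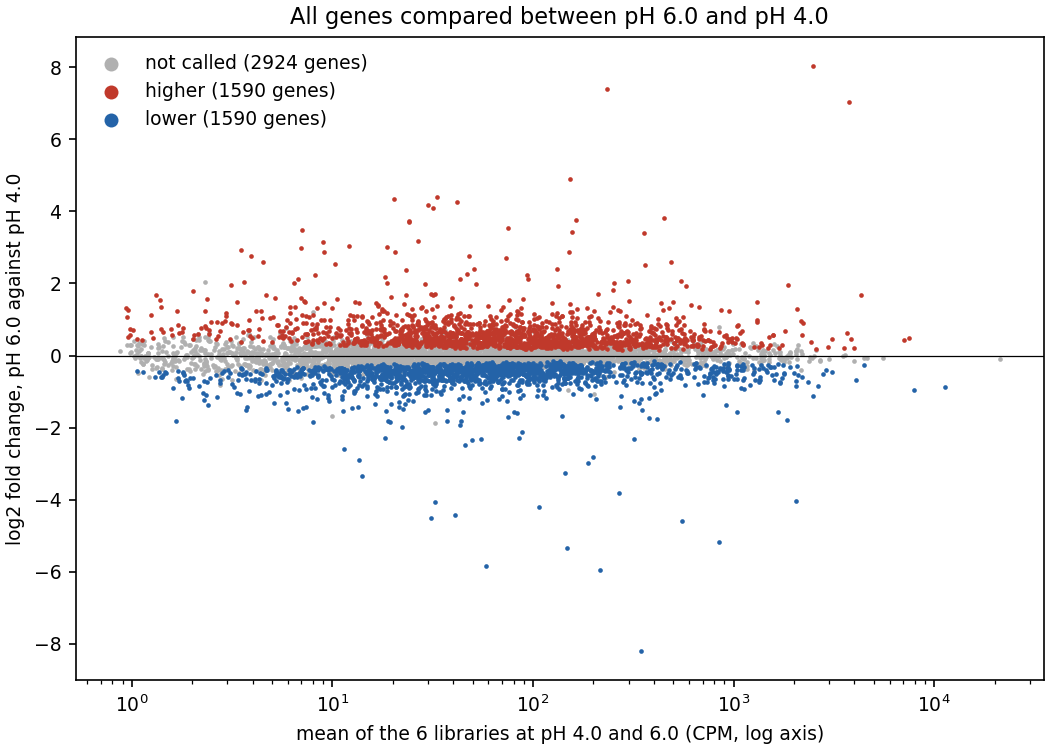
Each point is 1 of the 6104 genes, by its mean level in the 6 libraries (CPM, log axis) and its log2 fold change between pH 6.0 and pH 4.0. The 1590 higher (red) and 1590 lower (blue) genes spread over the whole range of levels, and the 2924 genes not called (grey) lie near 0.

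The extremes were genes that went from a low level to a much higher one or the reverse, and none of them is annotated in the sources used here. YALI0A00110g stood at 22.4, 21.8 and 11.5 CPM in the pH 4.0 libraries and at 4566, 5350 and 4927 CPM at pH 6.0. Its log2 fold change was 8.03 (SE 0.22, adjusted p = 3.18e-09), and it was at 5.16 to 8.21 CPM at pH 2.0. Its level was thus high in the pH 6.0 libraries and low in the 6 others. YALI0E22286g rose from 1.40 to 1.86 CPM at pH 4.0 to 313, 345 and 737 CPM at pH 6.0 (log2 7.39, SE 0.27, adjusted p = 1.80e-08). Its replicate C at pH 6.0 was well above replicates A and B.

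In the opposite direction, YALI0D19338g fell from 646, 617 and 794 CPM at pH 4.0 to 1.72, 1.19 and 1.10 CPM at pH 6.0 (log2 -8.20, SE 0.15, adjusted p = 1.64e-10). It had been higher still at pH 2.0, at 2608 to 3632 CPM. YALI0F13959g fell from 414, 490 and 375 CPM to 6.54, 7.08 and 4.31 CPM (log2 -5.95, SE 0.26, adjusted p = 7.42e-08). Unlike the former it was lower at pH 2.0 than at pH 4.0, at 87.7 to 186 CPM. The sizes of 3 of these 4 changes depend on the pseudocount: with a pseudocount of 5 they were 6.05 for YALI0E22286g, -6.76 for YALI0D19338g and -5.30 for YALI0F13959g, and DESeq2 on recovered reads gave 8.21 for the first and -8.98 for the second.

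All 3 listed genes of pH response and proton pumping were called higher, where 26.0% of all genes were. These calls were kept in each of the 20 alternative fits. For single loci, here and below, the alternative analyses are those 20 fits at an adjusted p under 0.05, with no condition on the fold size. Rim101 (YALI0B13640g), the transcription factor of the neutral and alkaline response, was at 276, 251 and 258 CPM at pH 4.0 and at 685, 763 and 766 CPM at pH 6.0. The groups were far apart beside their spread (log2 1.49, SE 0.07, adjusted p = 9.86e-08). The extracellular protease Axp1 (YALI0B05654g), which digests protein in acid media, went from 61.6, 78.4 and 44.2 CPM to 724, 763 and 485 CPM (log2 3.41, SE 0.25, adjusted p = 4.20e-06). Replicate C was the lowest of its group at both pH values. The ATPase of the plasma membrane (YALI0B22682g), which spends ATP to push protons out, was at 134, 141 and 142 CPM at pH 4.0 and at 177, 185 and 189 CPM at pH 6.0. Its rise was small (log2 0.40, SE 0.07, adjusted p = 0.0013). Its groups did not overlap, as in 3111 of the 3180 called genes.

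Of the 3 listed genes of citrate export and carriage 1 was called higher and none lower, against 26.0% each way among all genes. Their median log2 fold change was -0.09. The citrate exporter Cex1 (YALI0D20196g), a plasma membrane carrier through which citrate leaves the cell, was at 790, 1016 and 542 CPM at pH 4.0 and at 3122, 2938 and 2739 CPM at pH 6.0. The pH 4.0 libraries were uneven, with replicate B the highest and C the lowest, yet all were far below pH 6.0 (log2 1.95, SE 0.20, adjusted p = 4.75e-05). The mitochondrial citrate carriers, which bring citrate into the cytosol, were not called. YALI0F26323g was at 55.7, 57.0 and 59.4 CPM against 56.8, 51.3 and 44.5 CPM (log2 -0.18, SE 0.12, adjusted p = 0.225). YALI0B10736g was at 354, 319 and 211 CPM against 292, 284 and 236 CPM (log2 -0.09, SE 0.19, adjusted p = 0.706). Both pairs of groups overlapped.

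**Figure D2:**
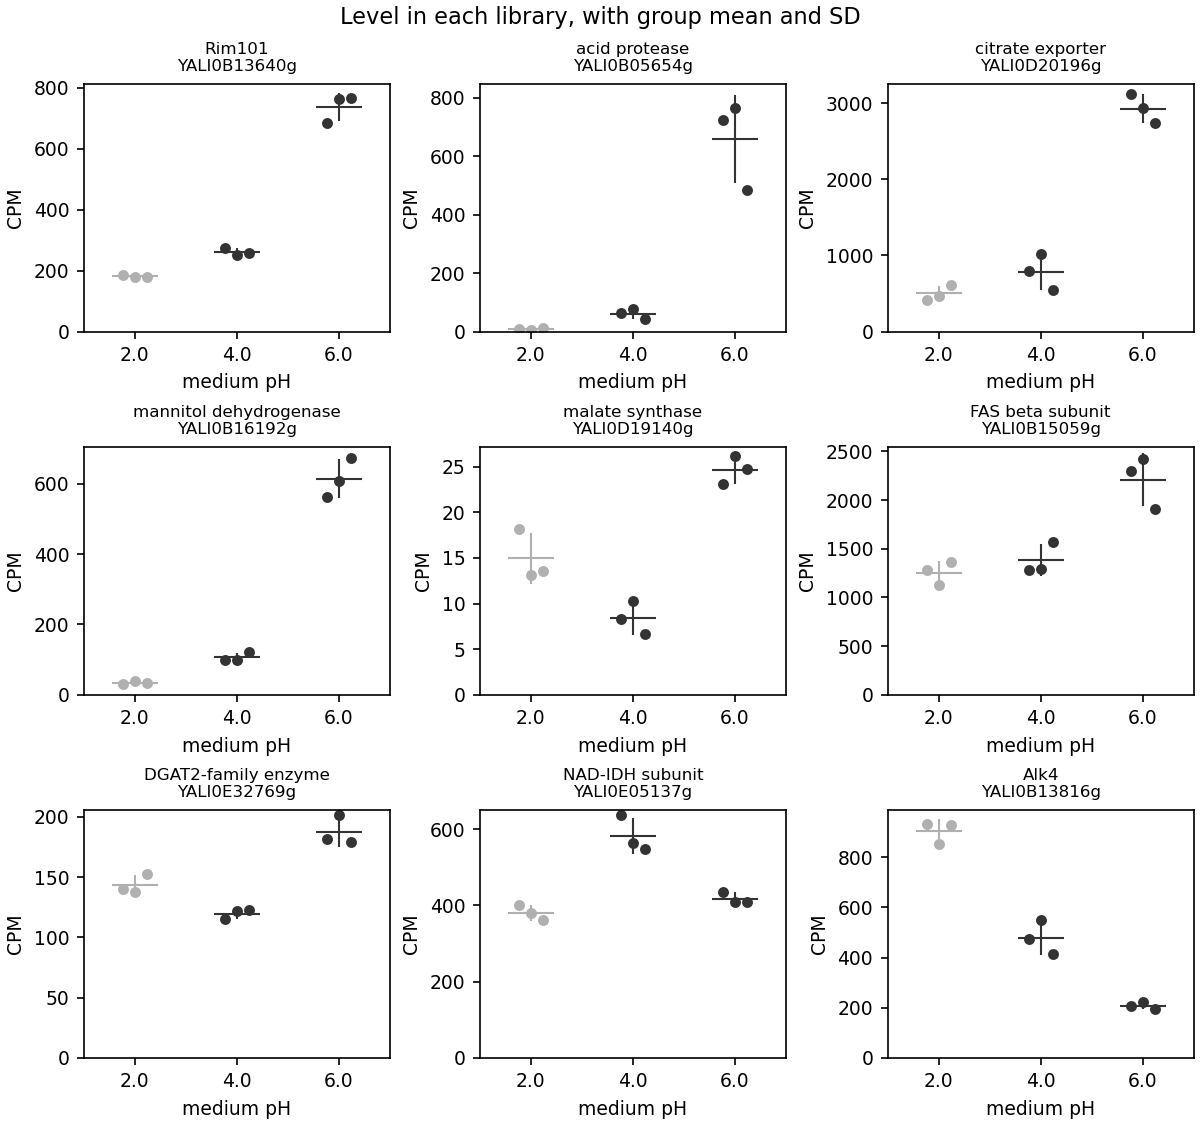
Level of 9 loci, chosen after their values were seen, in each library (points, CPM, linear axis from 0) by medium pH, with the group mean (horizontal line) and SD (vertical line, n = 3). At the loci shown the pH 4.0 and pH 6.0 libraries do not overlap; Rim101 reaches 685 to 766 CPM at pH 6.0 and Alk4 falls to 196 to 221 CPM.

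The TCA cycle, which oxidizes acetyl-CoA and makes citrate, had 7 of 15 listed genes lower at pH 6.0 and none higher, against 26.0% lower and 26.0% higher among all genes. The list's median log2 fold change was -0.08. The lower genes included both listed kinds of isocitrate dehydrogenase, the enzymes that carry carbon onward from citrate and isocitrate. The NAD-dependent subunit YALI0E05137g went from 637, 563 and 547 CPM to 437, 409 and 409 CPM (log2 -0.47, SE 0.08, adjusted p = 0.000591). The NADP-dependent enzyme YALI0F04095g went from 698, 672 and 719 CPM to 506, 461 and 515 CPM (log2 -0.50, SE 0.09, adjusted p = 0.00097). Neither gene's groups overlapped. Mitochondrial malate dehydrogenase (YALI0D16753g), which regenerates oxaloacetate, fell by 0.33 on the log2 scale (SE 0.08). The succinyl-CoA ligase beta subunit (YALI0D04741g) fell by 0.28 (SE 0.07) and the iron-sulfur subunit of succinate dehydrogenase (YALI0D23397g) by 0.26 (SE 0.07).

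The other NAD-dependent subunit, YALI0D06303g, was also called lower (log2 -0.27), but not without library 4.0 A (-0.21) or library 6.0 B (-0.21). The citrate synthase family member YALI0E02684g (log2 -0.28) was not called without library 6.0 B (-0.23). Citrate synthase itself (YALI0E00638g, log2 0.15), aconitase (YALI0D09361g, 0.03), fumarase (YALI0C06776g, -0.01) and the flavoprotein subunit of succinate dehydrogenase (YALI0D11374g, 0.04) were not called, though aconitase was called lower under quantile normalization (-0.15). The cycle's genes thus differed from one another, with falls of at most 0.50 on the log2 scale.

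Genes of the glyoxylate and methylcitrate cycles and of anaplerosis went in both directions, with 3 of 7 higher (42.9%) and 2 lower (28.6%), where each direction held 26.0% of all genes. Malate synthase YALI0D19140g, of the glyoxylate cycle, stood at 8.34, 10.3 and 6.62 CPM at pH 4.0 and at 23.1, 26.2 and 24.7 CPM at pH 6.0 (log2 1.47, SE 0.16, adjusted p = 6.12e-05). The other malate synthase, YALI0E15708g, rose less, from 1501 to 1625 CPM to 1920 to 1959 CPM (log2 0.31, SE 0.07, adjusted p = 0.0043). Pyruvate carboxylase (YALI0C24101g), which makes oxaloacetate from pyruvate, rose from 3246, 3329 and 3124 CPM to 4315, 4694 and 4336 CPM (log2 0.46, SE 0.08, adjusted p = 0.000998). All 3 of these genes were separated between the groups. Methylcitrate dehydratase (YALI0F02497g) fell (log2 -0.32, SE 0.08, adjusted p = 0.00727). Methylisocitrate lyase (YALI0F31999g) was called lower at -0.27, but not without library 4.0 B (-0.27) or C (-0.19) or library 6.0 A (-0.26) or C (-0.24). Isocitrate lyase (YALI0C16885g, log2 -0.13) and phosphoenolpyruvate carboxykinase (YALI0C16995g, -0.28, SE 0.19) were not called.

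Glycolysis had few calls, with 1 gene of 12 higher and 1 lower, against 52.1% called among all genes. Glucokinase (YALI0E15488g), which phosphorylates glucose, was at 1001, 1014 and 865 CPM at pH 4.0 and at 648, 683 and 686 CPM at pH 6.0 (log2 -0.51, SE 0.08, adjusted p = 0.00051). Hexokinase (YALI0B22308g), with the same reaction, was at a mean of 97.3 and 97.9 CPM (log2 0.01). Glucose-6-phosphate isomerase (YALI0F07711g) rose from 572 to 636 CPM to 710 to 720 CPM (log2 0.26, SE 0.06, adjusted p = 0.00594). The other 9 genes, from phosphofructokinase to pyruvate kinase and including fructose-1,6-bisphosphatase, had log2 fold changes between -0.21 and 0.15 and were not called. Triosephosphate isomerase (YALI0F05214g, log2 -0.21) was called lower with equal totals, in the fit of the 6 libraries and without library 2.0 A. Under quantile normalization phosphoglycerate mutase (YALI0B02728g) was called higher (0.21) and fructose-1,6-bisphosphatase (YALI0A15972g) lower (-0.20).

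Of the hexose transporters, which let glucose and fructose into the cell, 2 of 3 were called lower, against 26.0% of all genes. Yht4 (YALI0E23287g) was at 144, 161 and 168 CPM at pH 4.0 and at 86.7, 121 and 60.4 CPM at pH 6.0 (log2 -0.87, SE 0.24, adjusted p = 0.0127). Yht1 (YALI0C06424g) was at 53.0, 71.5 and 66.5 CPM and at 33.1, 51.5 and 38.3 CPM (log2 -0.64, SE 0.20, adjusted p = 0.022). The Yht1 groups lay close together, and that call was lost without library 4.0 B (-0.55) or C (-0.60) or library 6.0 A (-0.50) or C (-0.60). Yht3 (YALI0F19184g) was at 2.57 to 3.35 CPM and 2.98 to 3.63 CPM and was not called (log2 0.08). How reads shared by similar family members were counted is not given in the sources used here, so values within this family and the other families below are uncertain to that extent.

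The pentose phosphate pathway, a source of NADPH and of sugar phosphates, had 4 of 7 genes higher and 1 lower, against 26.0% each way among all genes, with a median log2 fold change of 0.23. Transketolase (YALI0E06479g), of its non-oxidative branch, rose from 2722, 2591 and 2523 CPM to 3545, 3584 and 3681 CPM (log2 0.46, SE 0.08, adjusted p = 0.000657). Ribose-5-phosphate isomerase (YALI0B06941g), of the same branch, moved the other way, from 104 to 115 CPM to 83.2 to 88.4 CPM (log2 -0.38, SE 0.07, adjusted p = 0.00115). The entry enzyme glucose-6-phosphate dehydrogenase (YALI0E22649g) was called higher at 0.28 (SE 0.09), but not without library 4.0 B (0.27) or library 6.0 C (0.24). Of the 5 calls in this pathway 2 were kept in all alternative analyses, those of transketolase and ribose-5-phosphate isomerase.

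Polyol enzymes, which turn sugars into mannitol and erythritol or back, held one of the larger changes. The mannitol dehydrogenase YALI0B16192g was at 98.3, 99.7 and 121 CPM at pH 4.0 and at 562, 608 and 673 CPM at pH 6.0 (log2 2.52, SE 0.11, adjusted p = 5.63e-08). Its homologue YALI0D18964g fell, from 355, 419 and 440 CPM to 287, 276 and 292 CPM (log2 -0.50, SE 0.08, adjusted p = 0.000817). Homologues within 1 small family thus moved in opposite directions. Erythrose reductase (YALI0F18590g), the last step of erythritol synthesis, rose from 1273, 1196 and 1220 CPM to 1752, 1738 and 1778 CPM (log2 0.51, SE 0.07, adjusted p = 0.000183), and the reductase candidate YALI0C13508g from 124 to 147 CPM to 181 to 200 CPM (log2 0.50, SE 0.12). The candidate YALI0D07634g was not called (log2 0.07).

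In the erythritol utilization genes, 3 of 5 were called higher, against 26.0% of all genes. The transcription factor of this cluster, Euf1 (YALI0F01562g), rose from 20.0, 21.1 and 26.1 CPM to 37.2, 43.3 and 37.9 CPM (log2 0.80, SE 0.11, adjusted p = 0.000296), and this call was kept in all alternative analyses. The calls of erythrulose kinase (YALI0F01606g, log2 0.80, SE 0.27) and erythritol dehydrogenase (YALI0F01650g, 0.65, SE 0.24) were not. The kinase lost its call under quantile normalization and without library 4.0 A (0.59) or C (0.81) or library 6.0 A (0.82), B (0.75) or C (0.83). The dehydrogenase lost its call under quantile normalization, with no mean-variance trend, and without library 2.0 C (0.65), library 4.0 A (0.48) or B (0.72) or library 6.0 A (0.71), B (0.52) or C (0.71). The pH 4.0 libraries of the kinase were spread from 57.9 to 103 CPM, while those at pH 6.0 lay between 130 and 146 CPM.

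**Figure D3:**
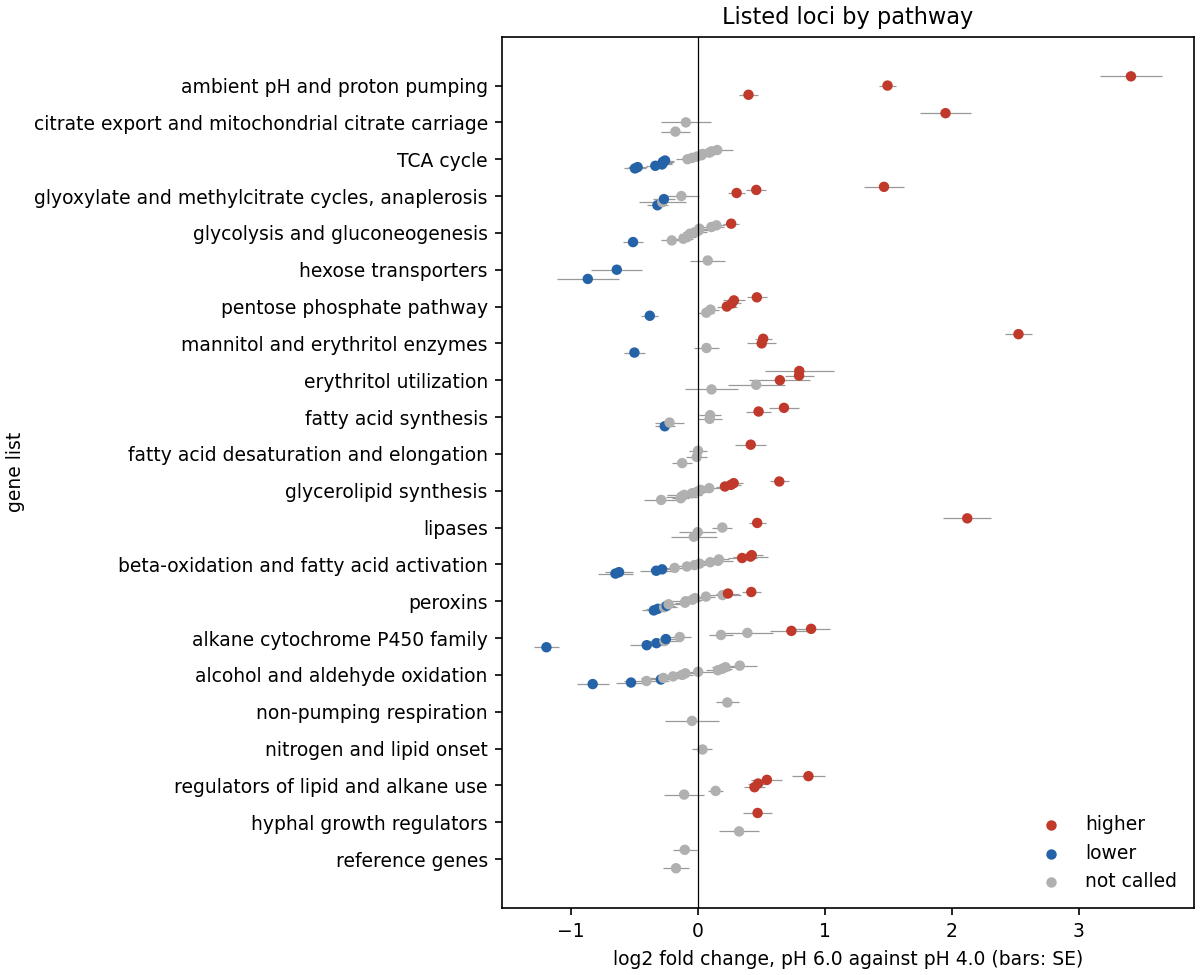
Log2 fold change between pH 6.0 and pH 4.0 (horizontal axis, with SE as bars) of the 150 listed loci, 1 row per list, red for higher, blue for lower and grey for not called. Several lists have no red point, among them the TCA cycle, and several no blue one, among them the regulators of lipid and alkane use. Most members of most lists lie within 1 of 0.

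Fatty acid synthesis had 2 of 6 genes higher (33.3%, against 26.0% of all genes), both of them subunits of fatty acid synthase, the complex that builds palmitate and stearate chains. The beta subunit (YALI0B15059g) rose from 1282, 1288 and 1572 CPM to 2300, 2422 and 1907 CPM (log2 0.68, SE 0.12, adjusted p = 0.00095). The alpha subunit (YALI0B19382g) rose from 810, 812 and 947 CPM to 1123, 1281 and 1171 CPM (log2 0.48, SE 0.10, adjusted p = 0.00217). Replicate C was the highest at pH 4.0 for both subunits, and neither gene's groups overlapped. Acetyl-CoA carboxylase (YALI0C11407g), which supplies the complex with malonyl-CoA, was not called (log2 0.10, SE 0.09), and neither was malic enzyme (YALI0E18634g, 0.09). ATP-citrate lyase, which splits citrate in the cytosol, had 1 subunit called lower (YALI0E34793g, log2 -0.26, SE 0.08) and the other not called (YALI0D24431g, -0.22, SE 0.11). The former call was lost without library 4.0 C (-0.23) or library 6.0 C (-0.20), and the latter gene was called without library 4.0 B (-0.32).

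Of the desaturases and elongases 1 of 4 was called, against 52.1% of all genes. The delta-12 desaturase (YALI0B10153g), which makes linoleate from oleate, was higher at 0.42 (SE 0.12, adjusted p = 0.015), a call lost without library 4.0 B (0.36) or library 6.0 A (0.34) or B (0.36). The delta-9 desaturase (YALI0C05951g) had a mean of 2511 CPM at pH 4.0 and 2499 CPM at pH 6.0.

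Glycerolipid synthesis, from glycerol 3-phosphate to triacylglycerol and phospholipids, had 4 of 12 genes higher (33.3%, against 26.0% of all genes) and none lower. The DGAT2-family diacylglycerol acyltransferase (YALI0E32769g), which adds the third fatty acid, rose from 115, 122 and 122 CPM to 182, 201 and 179 CPM (log2 0.64, SE 0.07, adjusted p = 7.98e-05). The DGAT1-family enzyme (YALI0D07986g) of the same reaction was not called (means 168 and 179 CPM, log2 0.09), and neither was the phospholipid:diacylglycerol acyltransferase (YALI0E16797g, -0.13). The latter was called lower under quantile normalization (-0.20) and without library 4.0 C (-0.18). Of the 4 calls in this list, those of the DGAT2-family enzyme and of the mitochondrial glycerol-3-phosphate dehydrogenase were kept in all alternative analyses. Glycerol kinase (YALI0F00484g, log2 0.26) lost its call under quantile normalization (0.16) and without library 4.0 A (0.20), 6.0 B (0.25) or 6.0 C (0.22). The phosphatidate phosphatase (YALI0D27016g, log2 0.21) lost it under quantile normalization (0.12), with equal totals (0.20), and without library 4.0 A (0.18), 6.0 A (0.20), 6.0 B (0.22) or 6.0 C (0.21). The sterol acyltransferase (YALI0F06578g, log2 -0.29, SE 0.14) was not called and its groups did not overlap, and it was called lower in the fit of the 6 libraries and without library 2.0 B (-0.29 each). Glycerol-3-phosphate dehydrogenase YALI0B02948g (log2 -0.11) was called lower without library 4.0 C (-0.28). The mitochondrial dehydrogenase (YALI0B13970g), which feeds glycerol phosphate into respiration, rose by 0.28 (SE 0.08, adjusted p = 0.0101). The first acylations, by YALI0C00209g (log2 -0.13, SE 0.12) and YALI0E18964g (log2 -0.0029, SE 0.07), were not called.

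Among lipases, which release fatty acids, 2 of 5 were higher, against 26.0% of all genes. The intracellular lipase gene Tgl3 (YALI0D17534g) rose from 179, 169 and 164 CPM to 243, 225 and 241 CPM (log2 0.47, SE 0.07, adjusted p = 0.000302). Lip8 (YALI0B09361g), a lipase of the secreted family, rose from 1.71, 2.25 and 1.56 CPM to 11.5, 15.0 and 8.28 CPM (log2 2.12, SE 0.19, adjusted p = 1.59e-05). It is a weakly expressed gene, but its groups were well apart. The secreted lipase Lip2 (YALI0A20350g) had means of 4.99 and 5.02 CPM, and Lip7 (YALI0D19184g) 1.23 and 1.17 CPM.

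Beta-oxidation, the peroxisomal breakdown of fatty acids, had 3 of 14 genes higher (21.4%) and 4 lower (28.6%), close to the 26.0% each way among all genes. Of these 7 calls 2 were kept in all alternative analyses, those of Pox4 and of the adenine nucleotide carrier. There are 6 listed acyl-CoA oxidases, the enzymes of the first step, with different chain-length preferences. Pox4 (YALI0E27654g) fell from 179, 198 and 145 CPM to 111, 115 and 109 CPM (log2 -0.62, SE 0.11, adjusted p = 0.000917). Pox1 (YALI0E32835g, -0.18), Pox2 (YALI0F10857g, -0.09) and Pox3 (YALI0D24750g, -0.03) were not called, though Pox1 was called lower without library 4.0 C (-0.36). Pox5 (YALI0C23859g) was called higher at 0.41, but not under quantile normalization or without library 4.0 A (0.32) or B (0.38) or library 6.0 B (0.43) or C (0.33). Pox6 (YALI0E06567g) was called lower at -0.28, but not without library 4.0 B (-0.18) or library 6.0 A (-0.24) or C (-0.29). The family thus had 1 member, Pox4, whose change was kept in all alternative analyses.

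The multifunctional enzyme of the middle steps (YALI0E15378g) rose from 6090, 6085 and 5856 CPM to 7428, 8029 and 8789 CPM (log2 0.42, SE 0.09, adjusted p = 0.0029), but was not called under quantile normalization (0.14). The peroxisomal adenine nucleotide carrier (YALI0E03058g), which brings ATP to the peroxisome for fatty acid activation, fell from 276, 281 and 198 CPM to 173, 170 and 135 CPM (log2 -0.65, SE 0.14, adjusted p = 0.00284). The lower genes included the thiolase YALI0E18568g, of the last step (log2 -0.33, SE 0.12, adjusted p = 0.047). Its groups overlapped, and 11 of the alternatives ended its call, among them the replicate block and each single library left out except 2.0 A and 4.0 C, with values from -0.38 (without library 6.0 C) to -0.23 (without library 4.0 B). The peroxisomal acyl-CoA transporter subunit YALI0D04246g (log2 0.35) lost its call under quantile normalization (0.30) and without library 4.0 A (0.22), 6.0 A (0.32) or 6.0 B (0.34).

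Of the peroxins, the proteins that assemble peroxisomes, 2 of 13 were higher (15.4%) and 3 lower (23.1%), each below the 26.0% among all genes, and 2 of the 5 calls, those of Pex5 and Pex10, were kept in all alternative analyses. Pex5 (YALI0F28457g), the receptor that imports matrix enzymes, rose from 345, 399 and 368 CPM to 466, 526 and 495 CPM (log2 0.42, SE 0.08, adjusted p = 0.00116). Pex10 (YALI0C01023g), of the ubiquitin ligase that recycles this receptor, fell by 0.35 (SE 0.10, adjusted p = 0.0121), while Pex3 (YALI0F22539g), of membrane assembly, was not called (means 207 and 204 CPM). The call of Pex2 (YALI0F01012g, log2 -0.32) was lost without library 4.0 B (-0.23) or 6.0 A (-0.27), and that of Pex19 (YALI0B22660g, -0.25) without library 6.0 A (-0.21). The call of Pex6 (YALI0C18689g, log2 0.24, adjusted p = 0.0483) was lost in 11 of the alternatives, including those without library 2.0 B or C (0.24 each), 4.0 A (0.18), 4.0 C (0.25), 6.0 B (0.20) or 6.0 C (0.22).

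The alkane cytochrome P450 family, which hydroxylates alkanes and fatty acids at the chain end, had 2 of 10 members higher and 4 lower, against 26.0% each way among all genes. Alk4 (YALI0B13816g) fell from 472, 549 and 415 CPM to 207, 221 and 196 CPM (log2 -1.19, SE 0.10, adjusted p = 1.05e-05), the one listed gene with a fall of more than 1 on the log2 scale. Alk7 (YALI0A15488g) rose from 1688, 1783 and 1231 CPM to 2825, 2898 and 2893 CPM (log2 0.89, SE 0.15, adjusted p = 0.000656), and Alk3 (YALI0E23474g) from 119, 138 and 90.8 CPM to 183, 205 and 186 CPM (log2 0.74, SE 0.17, adjusted p = 0.00446). These 3 changes, in opposite directions, had no overlap between the groups. Alk1 (YALI0E25982g) was called lower at -0.40 (SE 0.13), but not without library 4.0 B (-0.24) or library 6.0 A (-0.36), B (-0.42) or C (-0.42). Alk9 (YALI0B06248g, log2 -0.33) lost its call without library 4.0 A (-0.29), 4.0 B (-0.26) or 6.0 A (-0.28), and Alk11 (YALI0C10054g, -0.25) without library 4.0 B (-0.20) or 6.0 A (-0.22). Alk4 was thus the one lower member whose call was kept in all alternative analyses. Alk5 (YALI0B13838g), whose tag is next to that of Alk4 in the numbering, was not called (log2 -0.26, SE 0.13).

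Of 13 genes of alcohol and aldehyde oxidation 3 were lower (23.1%, against 26.0% of all genes) and none higher. Fatty aldehyde dehydrogenase 2 (YALI0E15400g), which turns fatty aldehydes into acids, fell from 138, 155 and 111 CPM to 73.1, 82.0 and 69.4 CPM (log2 -0.83, SE 0.12, adjusted p = 0.000401). Fatty aldehyde dehydrogenase 1 (YALI0A17875g) fell from 310, 375 and 281 CPM to 220, 251 and 197 CPM (log2 -0.53, SE 0.12, adjusted p = 0.00351). The third was fatty alcohol oxidase (YALI0B14014g, log2 -0.29), whose call was lost under quantile normalization and without library 4.0 B (-0.23) or C (-0.29) or library 6.0 A (-0.30) or C (-0.24). The 7 alcohol dehydrogenases, the formaldehyde dehydrogenase type enzyme YALI0F09603g and fatty aldehyde dehydrogenases 3 and 4 were not called, but 6 of these 10 were called in at least 1 alternative. Among them alcohol dehydrogenase 5 (YALI0D02167g, log2 0.33, SE 0.14, adjusted p = 0.0649) had no overlap between the groups. It was called higher under quantile normalization (0.39), with DESeq2 (0.33), in the fit of the 6 libraries and without library 2.0 A (0.33 each).

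Regulators of lipid and alkane use were higher in 4 of 6 cases, against 26.0% of all genes, and lower in none, and all 4 calls were kept in each alternative analysis. Mig1 (YALI0E07942g), a repressor of genes for other carbon sources in the presence of glucose, was at 77.7, 92.5 and 103 CPM at pH 4.0 and at 146, 163 and 193 CPM at pH 6.0 (log2 0.87, SE 0.13, adjusted p = 0.000358). Por1 (YALI0D12628g), an activator of fatty acid use, rose from 90.3, 63.0 and 84.7 CPM to 123, 109 and 112 CPM (log2 0.54, SE 0.12, adjusted p = 0.00405). In the alkane circuit, the activator Yas2 (YALI0E32417g) rose by 0.45 (SE 0.08) and the repressor Yas3 (YALI0C14784g) by 0.47 (SE 0.08). Activator and repressor were thus higher together, while the partner of Yas2, Yas1 (YALI0C02387g), was not called (means 13.8 and 12.7 CPM).

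The hyphal regulators served as markers of the filamentous cell form, the other form such a culture can hold. Hoy1 (YALI0A18469g), a homeobox protein needed for hyphae, was at 246, 278 and 205 CPM at pH 4.0 and at 360, 309 and 337 CPM at pH 6.0 (log2 0.47, SE 0.11, adjusted p = 0.00604). Mhy1 (YALI0B21582g), a zinc finger protein of the switch to hyphae, was at 32.8, 30.6 and 20.7 CPM and at 35.0, 38.8 and 30.8 CPM. It was not called (log2 0.32, SE 0.16, adjusted p = 0.108), though it was without library 4.0 A (0.45). The part of cell form in the other changes was not tested. In bulk RNA a change per cell and a change in the share of cells cannot be told apart.

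Neither of the listed genes of respiration without proton pumping was called at this step, where 52.1% of all genes were. The alternative oxidase (YALI0D09933g) was at 2913, 2022 and 2434 CPM at pH 4.0 and at 2393, 2239 and 2429 CPM at pH 6.0 (log2 -0.05, SE 0.21, adjusted p = 0.87). The external NADH dehydrogenase (YALI0F25135g) was at 844, 811 and 807 CPM and at 940, 926 and 1029 CPM, without overlap but not called (log2 0.23, SE 0.09, adjusted p = 0.0572). It was called in a fit of the 6 libraries alone, with DESeq2, under quantile normalization, and without library 2.0 A or B (0.23 each). AMP deaminase (YALI0E11495g), tied to the start of lipid storage under nitrogen shortage, was at 74.7, 83.0 and 79.2 CPM and at 79.1, 79.8 and 83.0 CPM. Actin (YALI0D08272g) was at 1826 to 1975 CPM and at 1633 to 1704 CPM (log2 -0.17, adjusted p = 0.164), and translation elongation factor 1-alpha (YALI0C09141g) at 21077 to 22675 CPM and 20031 to 21136 CPM (log2 -0.10, adjusted p = 0.378). Neither reference gene was called, but actin was called lower without library 2.0 A, when its log2 fold change was also -0.17.

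Transcripts of the mitochondrial genome were lower at pH 6.0. Of the 16 rows with YalifM identifiers 14 were called lower and none higher, against 26.0% each way among all genes, with log2 fold changes from -1.57 to -0.66. The 16 rows come from 1 genome, and how far they vary together was not computed. Their summed level was 2883, 1967 and 1925 CPM at pH 4.0 and 922, 854 and 557 CPM at pH 6.0. At pH 2.0 it was 3558, 2236 and 1174 CPM, so replicates at 1 pH could differ widely. Replicate A was the highest and C the lowest at each pH. The pH 4.0 and pH 6.0 groups did not overlap in this sum. Per the labels' protocols the libraries came from total RNA with a stranded kit, and the part of RNA selection in this difference was not tested.

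Over all 150 listed loci, 39 were higher (26.0%, as among all genes) and 29 lower (19.3%, against 26.0%), and their median log2 fold change was 0.0062. The lists were therefore, as a whole, called no more often than other genes. Absolute changes of at least 1 were seen at 7 of them, the 6 higher ones being Rim101, Axp1, Cex1, mannitol dehydrogenase, malate synthase YALI0D19140g and Lip8, and the lower one Alk4.

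The lower step, from pH 2.0 to pH 4.0, shares its pH 4.0 libraries with the upper one, so the 2 are given side by side. In the same 6104 genes it had 3864 calls (63.3%), of which 681 had a log2 change of 1 or more in size, and a median absolute change of 0.38, against 0.30 at the upper step. Genes that reached 1 CPM at pH 2.0 only are not among them. Summed CPM was 904216 to 910806 at pH 2.0 and 1010486 to 1094635 at pH 4.0, so lower-step values depend on the scaling. Alternatives were not run for the lower step by itself. The difference between the steps was itself tested, and 3093 genes (50.7%) changed by an unequal amount, 1589 with the more positive change at the upper step and 1504 with the more negative one.

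Several listed genes changed more at the upper step. Rim101 rose by 1.49 there against 0.53 at the lower step (difference 0.96, SE 0.12, adjusted p = 0.000312), and Cex1 by 1.95 against 0.61 (difference 1.33, SE 0.35, adjusted p = 0.0101). Mannitol dehydrogenase YALI0B16192g rose at both, by 2.52 and 1.61 (adjusted p of the difference = 0.00274). For Axp1 (YALI0B05654g), at 3.41 and 2.64, the difference of 0.77 (SE 0.43) was not called (adjusted p = 0.156), nor was that of the proton ATPase YALI0B22682g, at 0.40 and 0.20 (difference 0.19, SE 0.13, adjusted p = 0.224).

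Other genes turned at pH 4.0. Malate synthase YALI0D19140g fell by 0.77 at the lower step and rose by 1.47 at the upper one (adjusted p of the difference = 0.000312). The DGAT2-family enzyme YALI0E32769g had -0.26 and 0.64 (adjusted p = 0.000508), and Lip8 (YALI0B09361g) -0.73 and 2.12 (adjusted p = 0.000228). These 3 genes were lowest at pH 4.0. The isocitrate dehydrogenase subunit YALI0E05137g did the reverse, with 0.61 and then -0.47 (adjusted p = 0.000306), and so did the succinyl-CoA ligase subunit YALI0D04741g, with 0.49 and -0.28 (adjusted p = 0.0010).

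Some genes changed at the lower step and were not called at the upper one. The alternative oxidase YALI0D09933g had 1.89 and -0.05 (difference -1.94, SE 0.37, adjusted p = 0.0021). For the external NADH dehydrogenase, YALI0F25135g, the steps were 1.51 and 0.23 (difference -1.27, SE 0.16, adjusted p = 0.000346). Glycerol-3-phosphate acyltransferase YALI0C00209g had 1.17 and -0.13, a difference of -1.30 (SE 0.21, adjusted p = 0.00109). Alk4 (YALI0B13816g) fell at both steps, with -0.92 at the lower and -1.19 at the upper one, and the difference of -0.27 (SE 0.17) was not called (adjusted p = 0.215).

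**Figure D4:**
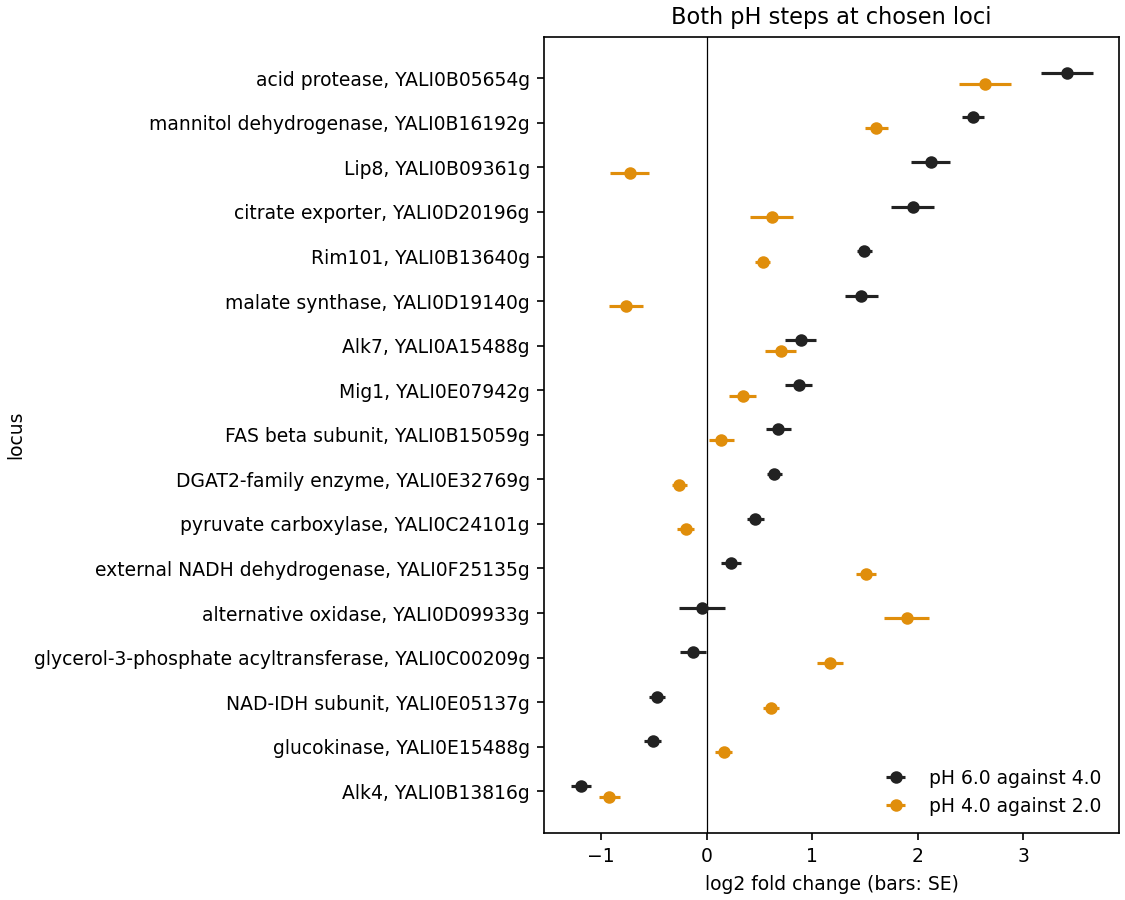
Log2 fold change (with SE as bars) of 17 listed loci, chosen after their values were seen, at the upper step (black, pH 6.0 against 4.0) and at the lower step (orange, pH 4.0 against 2.0), ordered by the upper step. Rim101 and Cex1 lie further right at the upper step, the alternative oxidase and the external NADH dehydrogenase at the lower step, and malate synthase and Lip8 change sign.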

How the data were processed

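The deposited table holds 1 signal per gene and library, which per the file headers is CPM normalised by the effective library size in edgeR. The submitters' processing notes list TopHat2 2.0.10 and HTSeq, besides edgeR, Trimmomatic 0.30 and bcl2fastq 1.8.4. Neither the genome build nor the strand setting of the counting is given in the sources used. The values are whole multiples of 1 read within 0.01 reads, so the reads behind each value were recovered.

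Genes with at least 1 CPM in 3 of the 6 libraries at pH 4.0 and 6.0 were kept. Values were taken as log2(CPM + 1) and fitted in R 4.3.3 by limma 3.58.1, using its mean-variance trend and 1 mean per pH over all 9 libraries (6 residual degrees of freedom). Tests were two-sided with Benjamini-Hochberg adjustment over all 6104 genes, called under 0.05. The difference between the steps was a contrast of the same fit. Alternatives changed the pseudocount (0.25, 5), the filter, the scaling, the trend or the libraries in the fit, or left out each library. Others added the replicate block or changed the test (edgeR 4.0.16 and DESeq2 1.42.0 on recovered reads). The threshold was changed for the counts of genes only, not for single loci. In the 6 libraries 3 reads correspond to 0.178 to 0.234 CPM, which covers counting error only. The scripts were run on simulated data with far fewer changed genes than were called here. That run does not test the error rate at such a share.

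The named genes were any listed locus and, of the other genes, the 2 each way with the largest change among called genes without overlap and with a higher group mean of at least 10 CPM. Members and lists were chosen with earlier results of these data known.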

Additional observations from a re-analysis of the deposited data

How the results depend on the processing

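Between 2645 (without pH 6.0 replicate B) and 3357 genes (without pH 2.0 replicate A) were called over the alternatives at an adjusted p under 0.05, against 3180. With a log2 change of 1 or more in size as a further condition, 339 were called, 205 higher and 134 lower. With a pseudocount of 5 those larger changes were 138 higher and 85 lower. An adjusted p under 0.01 left 2191. edgeR called 3178 and DESeq2 3227 genes on recovered reads. Genes called in both the reported analysis and an alternative kept their direction in each alternative run. The count for the difference between the steps lay between 2270 (without pH 4.0 replicate A) and 3108 (no filter). Over 154 named loci and 20 alternatives, 2924 of 3075 values kept their side of the threshold, 103 lost the call and 48 gained it. Direction was compared only for the 72 loci called in the reported analysis, and 0 of their values reversed. Loci not called could change sign, as aconitase (YALI0D09361g) did under quantile normalization (0.03 to -0.15). Of the 72 called loci 47 kept their call throughout.

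Between pH 4.0 and 6.0 the replicate letters paired the libraries weakly at most. Deviations from the group means at pH 4.0 and 6.0 correlated at 0.275 for A, 0.0951 for B and 0.109 for C. Between unlike letters the correlations lay from -0.302 to 0.181. Replicates A and C at pH 4.0 correlated best with their own letter, and pH 4.0 replicate B with pH 6.0 replicate C (0.181). A fit with the replicate block called 3112 genes, 1554 higher and 1558 lower.

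With 3 libraries a group, genes under 10 CPM were measured least precisely (median SE 0.16).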
